A study of Mus musculus with 38 samples.

Results

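Crb2 conditional knockout (cKO) retinas were compared with control retinas at postnatal day 6 (P6). All retinas labelled with that age were taken, which gave 10 of the 38 retinas of the series, on 5 of its 19 arrays. The study followed the postnatal retina of these mice at P0, P3, P6 and P10 and asked which transcripts differ when the mouse Crumbs gene Crb2 is lost. Single neural retinas without pigment epithelium were used and were not pooled. Their total RNA was labelled with Cy3 or Cy5, and each array carried 1 control and 1 cKO retina of the same age, so that retina 1 of each genotype shared array 1, and so on to array 5.

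The 5 control retinas came from Crb2F/+ Chx10Cre+/- mice, which carry a floxed and a wild-type Crb2 allele together with the Cre transgene. The 5 cKO retinas came from Crb2F/F Chx10Cre+/- mice, in which both alleles are floxed. Both groups had been backcrossed to C57BL/6J, and both carried Cre. The Chx10 promoter drives Cre in retinal progenitors in a mosaic way, so that cells without recombination remain in a cKO retina and enter the same RNA.

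CRB2 is a transmembrane protein of the apical Crumbs complex, which holds the scaffold proteins PALS1, PATJ and MUPP1 next to the adherens junctions. In the retina these junctions join progenitors early on, and photoreceptors and Müller glia later, where they form the outer limiting membrane. At P6 the mouse retina is in the last phase of cell birth: late progenitors give rise to rods, bipolar cells and Müller glia, while the phototransduction cascade is being switched on and vessels grow over the inner surface.

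The Crb2 probe could not check the genotype labels. Cre removes the coding end of the floxed allele, and the probe reads sequence downstream of the removed stretch. Its signal therefore checks nothing. Crb2 read 12.22, 12.14, 12.22, 12.21 and 12.20 (log2 intensity) in control retinas 1 to 5 and 11.98, 12.17, 12.11, 12.15 and 12.08 in cKO retinas 1 to 5. The ranges overlapped in a narrow band, through control retina 2 and cKO retinas 2 and 4. The log2 fold change was -0.12 (SE 0.0828), with an adjusted p of 1 in limma.

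The image software flagged between 66.8% and 70.9% of the spots of a P6 retina as well above background. The number of arrays and this share of measurable spots limit the precision of what follows. Fold changes are log2 values of cKO over control, fitted in limma on the difference within each array, with dye as a covariate and with the other 3 ages in the same fit. A level is a log2 intensity after quantile normalization, and levels of different genes are not on a common scale of abundance.

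As list medians, the genotype differences in the P6 retina were small for most cell types and for every pathway examined. Single genes were bounded less closely in some lists, as given below. Over 36 lists of genes, 18 medians lay above 0 and 18 below, and outside the lists of lens, blood and sex-linked genes none was farther from 0 than -0.20. Rod, cone, Müller glia and ganglion cell lists were within 0.04 of 0 in either direction. The bipolar list had a median slightly below 0 and the cell division list one slightly above, each with most of its members on the same side. For cell division the arrays differed in sign, and for the bipolar list they did so before dye adjustment. No single probe passed the threshold.

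Of 39283 probes, 0 (0%) had an adjusted p under 0.05 in limma, and the lowest adjusted p was 0.291. At an unadjusted p under 0.05 there were 1594 probes (4.06%), of which 740 (1.88%) were higher and 854 (2.17%) lower in cKO. The methods' t-test gave 0 at the adjusted and 498 at the unadjusted threshold. Higher probes made up 46.4% of the 1594, and 30.8% when the arrays were centred on the median without quantile normalization. With array as a random block instead of a fixed one, 2 probes passed the adjusted threshold, for Gm3058 and Pfkfb3.

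Among 25273 probes well above background in all 5 retinas of a genotype, the median absolute fold change was 0.05 and the 99th percentile 0.29. Only 1 of them exceeded a log2 fold change of 1. The standard error of a difference had a median of 0.0736, and for 94.5% of these probes the 95% confidence interval lay between -0.5 and 0.5. The intervals thus bound the difference of most expressed genes at less than a log2 value of 0.5, although they leave room for smaller ones.

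The lists held 498 distinct measured genes, and 452 of them were well above background. For 392 of the 452 the 95% confidence interval lay inside -0.5 to 0.5. The share was lower in some lists. Of the genes well above background, it held for 6 of 15 endothelial, 9 of 14 bipolar, 2 of 9 pigment epithelium and 0 of 11 lens genes. At an unadjusted p under 0.05, 5 list genes were higher in cKO and 4 lower, together 1.81% of them, below the 4.06% of all probes. The 5 higher ones were Nefm, Apaf1, Zyx, Car1 and Aurkb, and the 4 lower ones were Psen2, Aqp4, Cd14 and Egfl7. All had an adjusted p of 1.

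**Figure D1:**
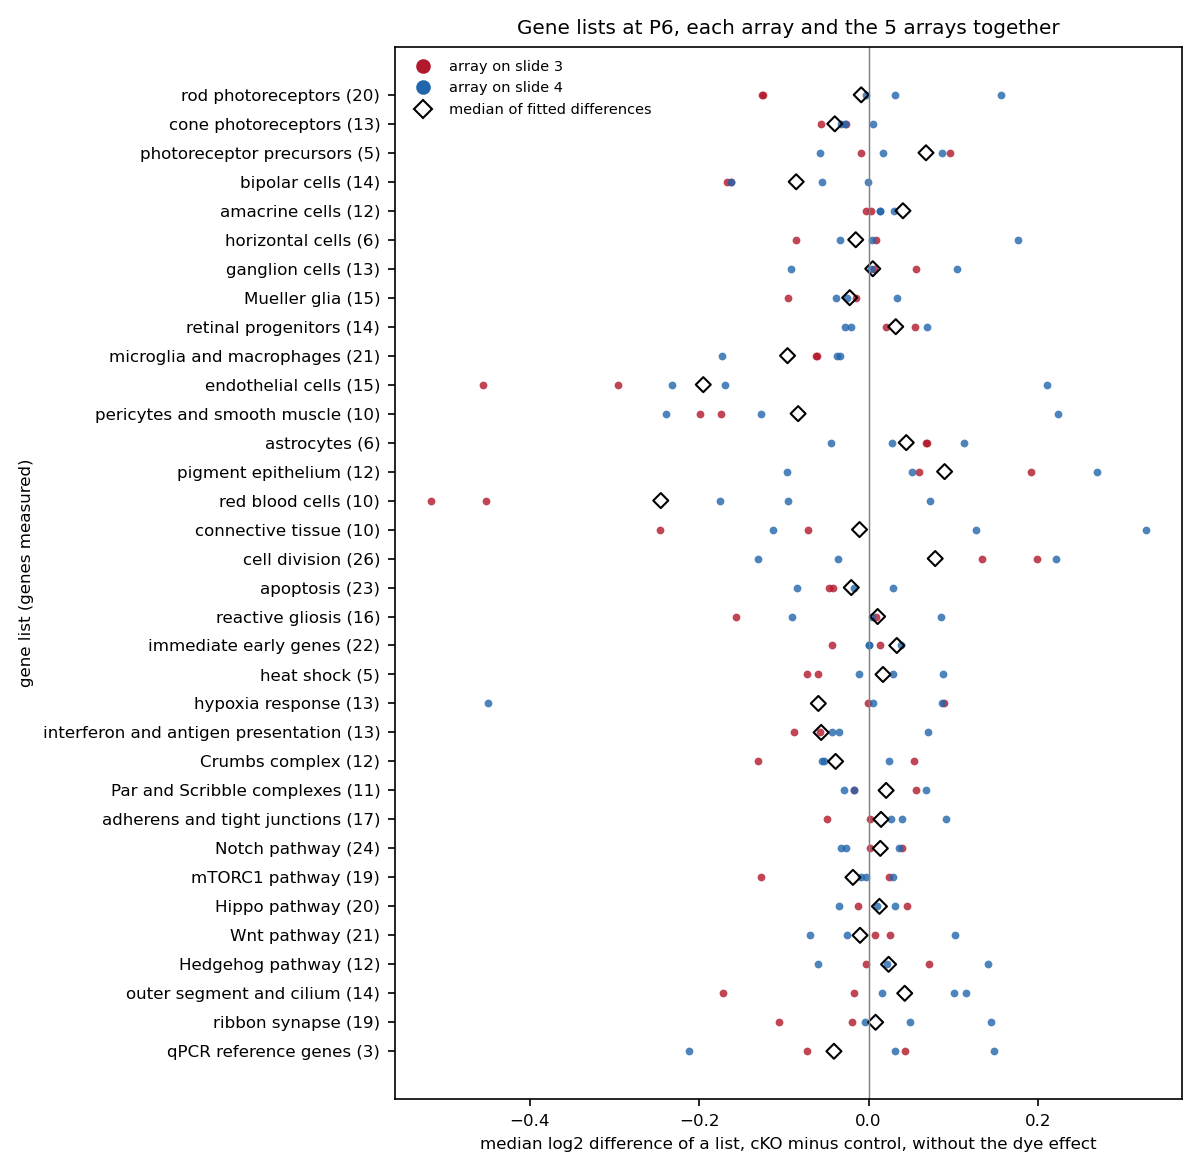
Median log2 difference (horizontal axis, cKO minus control, without the fitted dye effect) of each gene list (vertical axis, number of genes measured in brackets) at P6. Points are the 5 arrays, coloured by slide, and open diamonds are the medians of the fitted fold changes of the 5 arrays together. The lists of lens and sex-linked genes are left out because of their wider range. Most diamonds lie within 0.10 of 0, and the points of the endothelial and red blood cell lists spread most.

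Rods are the most numerous cells of the mouse retina, and their genes were being switched on at this age. The rod list had a median log2 fold change of -0.01, with 9 of 20 genes above 0 and 0 at an unadjusted p under 0.05. The median over all probes was 0.00. Its members ranged from -0.11 for Rom1, a disc rim protein, to 0.11 for Reep6, a protein of the endoplasmic reticulum.

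Nrl, the transcription factor that sets rod fate, read 16.96, 16.87, 16.89, 17.02 and 16.81 in control retinas 1 to 5. In the cKO retinas it read 16.79, 17.02, 16.64, 17.22 and 16.98. The cKO values lay both below and above the control values, with cKO retina 3 the lowest and cKO retina 4 the highest of the 10. The log2 fold change was 0.04 (SE 0.119, 95% confidence interval -0.21 to 0.29). Rom1 averaged 17.36 ± 0.159 in control and 17.21 ± 0.176 in cKO retinas (SD, n = 5 each), and its interval ran from -0.41 to 0.19.

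The slides differed in sign for rods. After the fitted dye effect was taken off, the rod medians were -0.13 and -0.12 on arrays 1 and 2, which were on slide 3 with cKO in Cy5, and 0.03, -0.00 and 0.16 on arrays 3 to 5, which were on slide 4 with cKO in Cy3. Within the P6 arrays, slide, dye orientation and a difference in sex within the pair, given below, cannot be told apart. The dye effect in the fit rests on the other ages too.

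Cones had a list median of -0.04, with 4 of 13 genes above 0 and 0 at an unadjusted p under 0.05. Without array 1 this median was 0.01. Arr3, cone arrestin, read 11.46, 11.16, 11.42, 11.52 and 11.41 in control and 11.26, 11.13, 11.46, 11.47 and 11.76 in cKO retinas. The groups overlapped in part, with cKO retina 5 above and cKO retina 2 just below all control retinas, and the fold change was 0.02 (SE 0.183). The short-wave opsin Opn1sw gave 0.05 (SE 0.116).

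Genes of photoreceptor precursors, the postmitotic cells that have not yet taken on a rod or cone identity, had a median of 0.07, with 4 of 5 above 0. Crx, which drives photoreceptor gene expression, read 13.40, 13.44, 13.51, 13.35 and 13.08 in control and 13.39, 13.43, 13.54, 13.48 and 13.53 in cKO retinas. Only control retina 5 stood below the rest. The difference came to 0.12 (SE 0.0937), that of Prdm1, a repressor of bipolar fate in precursors, was 0.13 (SE 0.1), and that of Otx2, upstream of both, was 0.07 (SE 0.126). Genes of the outer segment and cilium had a median of 0.04 (10 of 14 above 0), among them Prom1 at 0.02 and Pcdh21 at 0.08, both proteins of the growing discs.

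**Figure D2:**
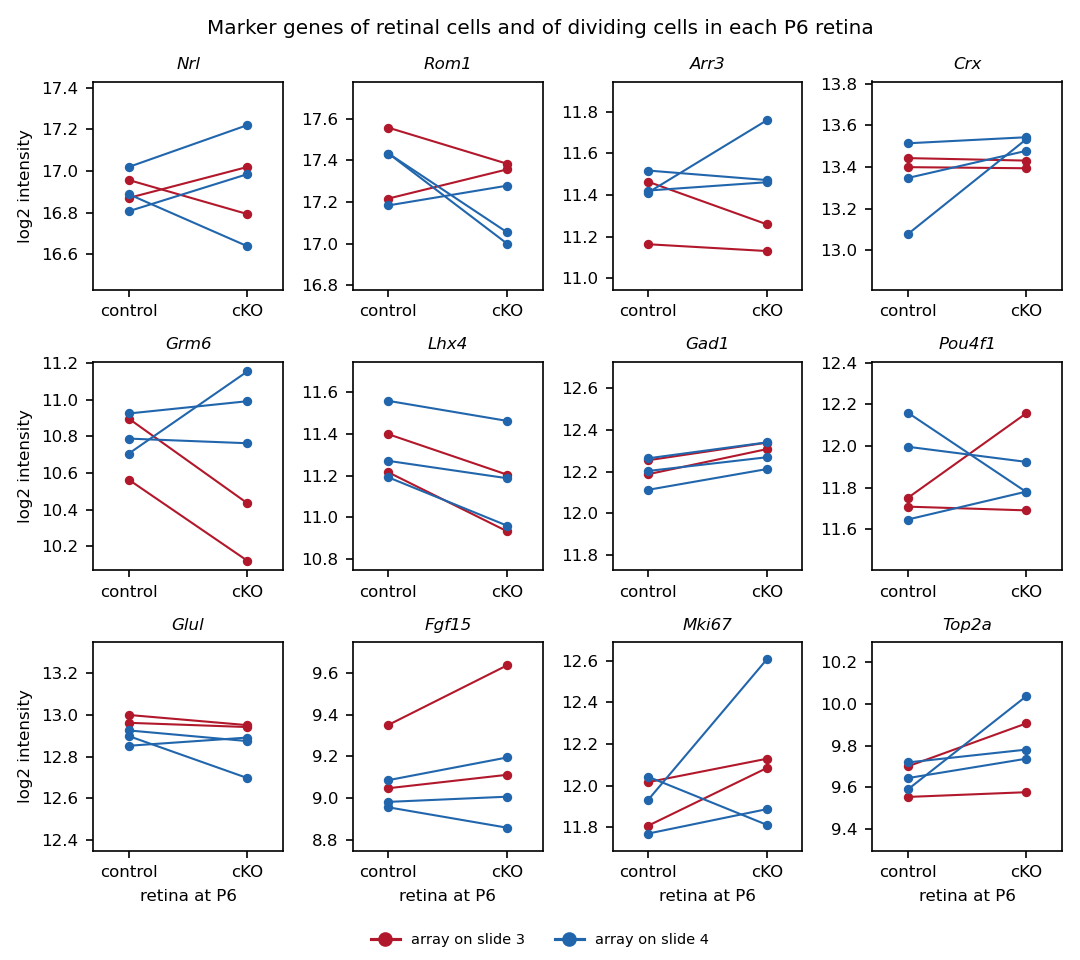
Log2 intensity (vertical axis, scaled for each gene) of 12 marker genes in each control and cKO retina at P6 (horizontal axis). Lines join the retinas of an array and are coloured by slide. Lhx4 was lower and Gad1 and Top2a were higher in cKO on each of the 5 arrays, and the lines of Nrl and Grm6 cross. Of all 39283 probes, 824 were higher and 1011 lower in cKO on each of the 5 arrays.

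Bipolar cells relay photoreceptor signals to the inner retina and are among the last neurons to mature. Their list stood slightly below 0, at a median of -0.09, with 3 of 14 genes above 0 and 0 at an unadjusted p under 0.05. As RNA came from whole retinas, fewer cells of a type and less RNA per cell cannot be told apart here.

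The median log2 intensity of the 14 bipolar genes was 9.90, 10.07, 9.90, 9.86 and 9.87 in control and 9.75, 9.79, 9.78, 9.67 and 10.13 in cKO retinas. cKO retina 5 gave the highest reading of the 10, while the other 4 cKO retinas read below every control retina. The dye-adjusted medians were -0.17, -0.16, -0.16, -0.06 and -0.00 on arrays 1 to 5, which averaged -0.16 on slide 3 and -0.07 on slide 4. Leaving out 1 array at a time gave medians from -0.13 to -0.05, with -0.05 without array 2 and -0.13 without array 5.

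Lhx4, a LIM homeobox factor of developing bipolar cells, read 11.22, 11.40, 11.19, 11.27 and 11.56 in control and 10.93, 11.21, 10.96, 11.19 and 11.46 in cKO retinas. It was lower in cKO on all 5 arrays, though the groups overlapped because array pairs differed in level. Its fold change was -0.17 (SE 0.0829, adjusted p = 1 in limma). An exact permutation of signs over the arrays had p = 0.0625 (two-sided), the smallest that 5 arrays allow, so that it cannot pass 0.05. Vsx1, a homeobox factor of cone bipolar cells, was at -0.24, and Bhlhe23, a factor of rod bipolar cells, at -0.19.

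Grm6 and Trpm1 of ON bipolar cells, and also Cabp5, varied more from retina to retina than between genotypes. Grm6, the glutamate receptor of these cells, read 10.56, 10.90, 10.93, 10.79 and 10.71 in control and 10.12, 10.43, 10.99, 10.76 and 11.16 in cKO retinas, and its 95% confidence interval was -0.67 to 0.67. Trpm1, the channel that this receptor gates, had a fold change of -0.09 (SE 0.346). Cabp5, a calcium-binding protein, was at 9.91 in control retina 1 and between 11.19 and 13.24 in the other 9 retinas, with a fold change of 0.13 (SE 0.263).

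Ribbon synapse genes, which serve both photoreceptors and bipolar cells, had a median of 0.01, with 10 of 19 above 0. Cacna1f, the calcium channel of the photoreceptor terminal, was at 0.10 (SE 0.172) and Bsn, which anchors ribbons, at -0.03 (SE 0.147).

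Inner retinal neurons, most of them born before birth, showed no larger differences. The amacrine list had a median of 0.04, with 8 of 12 genes above 0. Gad1, the enzyme that makes GABA, read 12.25, 12.19, 12.26, 12.11 and 12.20 in control and 12.34, 12.31, 12.34, 12.21 and 12.27 in cKO retinas. On each array cKO was the higher one, and the 2 groups met between 12.21 and 12.26. The difference was 0.10 (SE 0.0746, adjusted p = 1 in limma).

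Horizontal cell genes had a median of -0.02 (2 of 6 above 0), and their regulator Lhx1 a fold change of -0.02 (SE 0.0695). Ganglion cells, the output neurons, had a median of 0.01, with 7 of 13 genes above 0. Their factors Pou4f1 and Pou4f2 were at 0.03 (SE 0.0843) and 0.11 (SE 0.0776).

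Nefm, the medium neurofilament chain of ganglion cell axons, was the ganglion gene with the lowest p. It read 11.39, 11.70, 11.80, 11.62 and 11.32 in control and 11.53, 11.88, 11.83, 11.76 and 11.59 in cKO retinas. The retinas of an array went up and down together, with cKO above control on all 5 arrays, and the groups overlapped over most of their range. The difference came to 0.17 (SE 0.0571, unadjusted p = 0.00894 and adjusted p = 1 in limma).

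Müller glia, the radial glia that share the outer limiting membrane with photoreceptors, had a list median of -0.02, with 7 of 15 genes above 0. Glul, glutamine synthetase, averaged 12.93 ± 0.057 in control and 12.87 ± 0.103 in cKO retinas (SD, n = 5 each), and Rlbp1, a retinoid carrier, 14.23 ± 0.09 and 14.22 ± 0.13. Their fold changes were -0.06 (SE 0.0622) and 0.01 (SE 0.101).

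Aqp4, the water channel of glial endfeet, read 7.19, 7.21, 7.25, 7.30 and 7.41 in control and 7.22, 7.43, 6.78, 6.94 and 7.07 in cKO retinas. The 3 cKO retinas of slide 4 lay below every control retina and the 2 of slide 3 did not. After the dye effect was taken off, the differences were -0.13, 0.06, -0.32, -0.20 and -0.18 on arrays 1 to 5. The fitted fold change was -0.15 (SE 0.0638, unadjusted p = 0.0293 and adjusted p = 1 in limma).

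Genes of retinal progenitors had a median of 0.03, with 11 of 14 above 0. Fgf15 and Sfrp2, 2 secreted factors of these cells, were at 0.06 (SE 0.134) and 0.03 (SE 0.113). Reactive gliosis genes centred on 0.01 (8 of 16 above 0), and Gfap, an intermediate filament of astrocytes and stressed Müller glia, read between 8.32 and 8.65 in control and between 8.56 and 8.85 in cKO retinas. Before dye adjustment Gfap was higher in cKO on 5 of 5 arrays, with overlap. After it the differences were 0.21, 0.16, -0.02, 0.42 and 0.21 on arrays 1 to 5. Its fold change of 0.20 had a wide error (SE 0.457), which pools the spread of the arrays of all ages.

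Cell division genes had a list median slightly above 0, which the arrays did not share. Their median fold change was 0.08, 23 of 26 lay above 0, and 1 had an unadjusted p under 0.05. This one was Aurkb, which in no retina was well above background. All 24 members that were well above background had a 95% confidence interval inside -0.5 to 0.5. At P6 the last progenitors still divide, but which cells gave the signal of these genes was not tested.

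The promoters of Mki67 and Top2a, the first 2 genes of the list, are shown here because 20 of the 26 list genes were among those with the largest decrease with age. Each sequence holds the 250 bases before the start of the gene in RefSeq (GRCm38.p6), read 5′ to 3′ on the strand of the gene. Capitals mark CCAAT, the box bound by NF-Y, and TTTGAA, the core of the cell cycle homology region, on either strand. Mki67 lies at chr7:135716380-135716629 on the minus strand and Top2a at chr11:99024190-99024439 on the minus strand.
Mki67: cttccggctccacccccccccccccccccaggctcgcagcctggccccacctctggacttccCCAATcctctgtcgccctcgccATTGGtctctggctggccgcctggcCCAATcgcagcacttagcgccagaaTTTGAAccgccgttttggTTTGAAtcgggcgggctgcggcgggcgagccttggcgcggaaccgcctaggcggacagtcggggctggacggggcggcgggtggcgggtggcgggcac
Top2a: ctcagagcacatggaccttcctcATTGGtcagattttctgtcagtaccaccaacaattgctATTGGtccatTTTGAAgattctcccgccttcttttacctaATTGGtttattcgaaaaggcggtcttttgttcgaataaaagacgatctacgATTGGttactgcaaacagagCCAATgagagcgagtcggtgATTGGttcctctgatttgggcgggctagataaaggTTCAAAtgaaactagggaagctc
Mki67 holds 3 CCAAT and 2 TTTGAA matches and Top2a 6 and 2, and no match of one motif shares a base with one of the other. CCAAT occurred in 19 of the 21 promoters of the list that could be matched (90.5%), against 9314 of 27025 promoters of that length (34.5%). TTTGAA occurred in 8 of 21 (38.1%), against 4398 of 27025 (16.3%). A match describes the letters only.

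Mki67, which marks nuclei in cycle, read 12.02, 11.81, 11.93, 11.77 and 12.04 in control and 12.13, 12.09, 12.61, 11.89 and 11.81 in cKO retinas. The groups overlapped, with cKO retina 3 above all others and cKO retina 5 among the low ones. cKO over control came to 0.18 (SE 0.129, adjusted p = 1 in limma). Without array 3 it was 0.07, and over all alternatives it ranged from 0.07 to 0.30.

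Top2a, the topoisomerase that untangles chromosomes before division, read 9.70, 9.55, 9.59, 9.64 and 9.72 in control and 9.91, 9.58, 10.04, 9.74 and 9.78 in cKO retinas. It was higher in cKO on all 5 arrays, and cKO retinas 1 and 3 stood farthest above control. The fitted difference was 0.16 (SE 0.0836, adjusted p = 1 in limma). Pcna, the sliding clamp of DNA replication and the brightest gene of the list, was at 0.07 (SE 0.0631).

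The list as a whole read 11.01, 10.67, 10.98, 10.75 and 10.93 in control and 11.24, 10.93, 11.05, 10.65 and 10.85 in cKO retinas, as the median log2 intensity of 26 genes. Arrays did not share a direction: cKO was above control on arrays 1, 2 and 3 and below it on arrays 4 and 5. The dye-adjusted medians were 0.20, 0.13, 0.22, -0.04 and -0.13, which averaged 0.17 on slide 3 and 0.02 on slide 4. Without array 1 or array 3 the list median came down to 0.03 or 0.03, and without array 5 it was 0.12.

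To place the retinas along the normal course of maturation, probes were chosen from control retinas at P3 and P10 alone. The study's records differ among themselves in the genotypes of the P10 retinas, so that these groups, taken from the sample labels, are uncertain. The 200 probes with the largest increase had control medians of 7.72, 9.75 and 11.61 at P3, P6 and P10. The 200 with the largest decrease had 11.41, 9.28 and 6.75. The rising probes included 15 of the 20 rod genes and 8 of the 14 bipolar genes, and the falling probes 20 of the 26 cell division genes, so that these lists are not independent of each other.

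At P6 the rising probes had a median fold change of -0.04, with 64 of 200 above 0, and the falling probes one of 0.07, with 171 of 200 above 0. Set against the change of control retinas from P3 to P10, these medians came to -1.08% and -1.65% of it. At an unadjusted p under 0.05, 0 rising probes were higher and 2 lower in cKO, and 6 falling probes were higher and 0 lower. Over all probes 1.88% were higher and 2.17% lower at that threshold, and 4.06% in either direction, a larger share than in both lists of 200 when both directions are counted.

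The rising probes had a median log2 intensity of 9.83, 9.83, 9.70, 9.78 and 9.62 in control and 9.57, 9.54, 9.71, 9.65 and 9.87 in cKO retinas. For the falling probes it was 9.35, 9.10, 9.12, 9.32 and 9.35 in control and 9.65, 9.23, 9.34, 9.15 and 9.21 in cKO. The ranges of both genotypes overlapped, with cKO retina 5 the highest for the rising probes and cKO retina 1 the highest for the falling ones. These levels are not dye-adjusted. The dye-adjusted medians on arrays 1 to 5 were -0.16, -0.14, -0.01, -0.04 and 0.13 for the rising probes. For the falling probes they were 0.21, 0.11, 0.20, -0.06 and -0.12, so that arrays of both slides were high. Without array 5, 29 of the 200 rising probes were above 0.

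**Figure D3:**
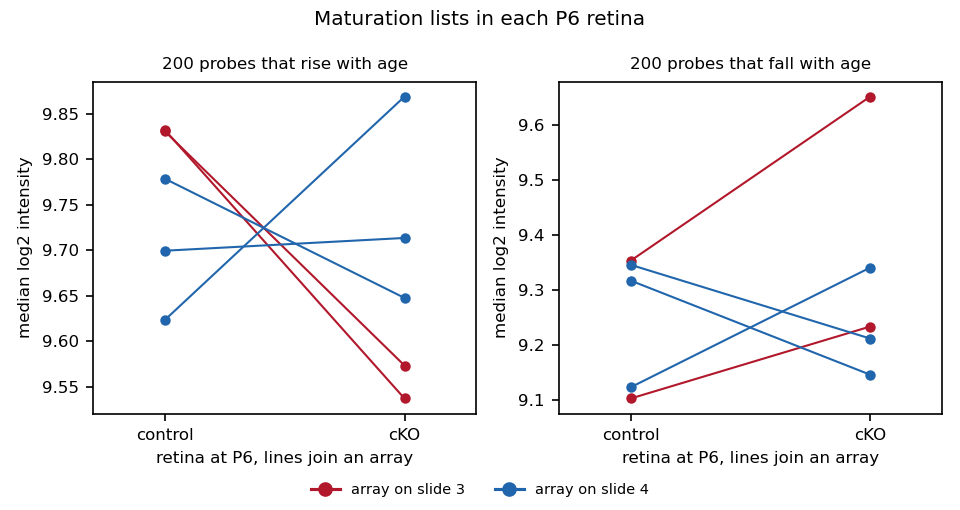
Median log2 intensity (vertical axis) of the 200 probes that rise and the 200 that fall most between P3 and P10 in control retinas, in each control and cKO retina at P6 (horizontal axis). Lines join the retinas of an array and are coloured by slide. The lines cross in both panels, and both arrays of slide 3 run downwards for the rising and upwards for the falling probes.

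Of the 6 falling probes with a low p, 5 carry a gene name. Nek2, a kinase of the centrosome, read 8.11, 8.06, 8.46, 8.08 and 8.15 in control and 8.26, 8.32, 8.67, 8.17 and 8.42 in cKO retinas. It was higher in cKO on all 5 arrays, and the groups overlapped in the middle. Its fold change was 0.21 (SE 0.0765, unadjusted p = 0.0156 and adjusted p = 1 in limma). The others were Kif15, a mitotic kinesin, at 0.19, Ckap2l, a spindle protein, at 0.17, Ncaph, a condensin subunit, at 0.14, and 2810417H13Rik, a partner of the replication clamp, at 0.26. Their probes were named after their values had been seen.

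The 2 rising probes were those of Aqp4 and of Slco1c1, a thyroxine carrier of brain vessels. Slco1c1 read 6.54, 6.02, 6.01, 6.10 and 6.15 in control and 6.07, 5.45, 5.76, 5.67 and 5.96 in cKO retinas. It was lower in cKO on all 5 arrays, with overlap through cKO retina 1. The log2 fold change was -0.37 (SE 0.105, unadjusted p = 0.00269 and adjusted p = 1 in limma).

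Vessels grow into the mouse retina in the first postnatal week, and their genes differed in level from retina to retina. The endothelial list had a median fold change of -0.20, with 2 of 15 genes above 0. Pericyte and smooth muscle genes were at -0.08, with 0 of 10 above 0. Leaving out 1 array at a time moved that median between -0.15 and -0.04. After dye adjustment array 3 alone was above 0, at 0.22. Only Egfl7 in the lists of both cell types had an unadjusted p under 0.05.

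The median log2 intensity of the 15 endothelial genes was 9.34, 8.99, 8.29, 8.98 and 8.85 in control and 8.87, 8.66, 8.94, 8.82 and 8.49 in cKO retinas. Control retina 3 was the lowest of all 10 and control retina 1 the highest, so that array 3 alone had cKO above control. The dye-adjusted medians were -0.45, -0.30, 0.21, -0.17 and -0.23, and they averaged -0.38 on slide 3 and -0.06 on slide 4. Leaving out 1 array at a time moved the list median between -0.27 and -0.11, with -0.11 without array 1.

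Cdh5, the cadherin of endothelial junctions, read 9.44, 9.06, 8.23, 9.38 and 8.97 in control and 8.88, 8.66, 8.94, 9.07 and 8.49 in cKO retinas. It followed the list, with control retina 3 apart from the other control retinas, and its fold change was -0.23 (SE 0.288). Egfl7, a secreted vessel protein, was at -0.20 (SE 0.0893, unadjusted p = 0.0401 and adjusted p = 1 in limma), Pecam1 at 0.06 (SE 0.0518) and Kdr, the main VEGF receptor and the brightest gene of the list, at -0.09 (SE 0.0989). Among pericyte genes, Pdgfrb was at -0.18 (SE 0.106) and Rgs5 at -0.11 (SE 0.433). The dye-adjusted differences of Rgs5 were -0.95 and -0.46 on the arrays of slide 3 and 0.34, 0.17 and 0.34 on those of slide 4.

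Control retina 1 was the highest for both blood and endothelial genes, while control retina 3, the lowest for endothelial genes, was in the middle for blood. Red blood cell genes had a median of -0.25, with 3 of 10 above 0, and their median log2 intensity was 9.34, 8.72, 8.77, 8.79 and 8.85 in control and 8.88, 8.44, 8.55, 8.58 and 8.97 in cKO retinas. Control retina 1 stood above the others. Hba-a2, an alpha-globin gene and the brightest of the list, read 17.12 there, between 15.32 and 15.76 in the other 4 control retinas and between 14.91 and 15.87 in cKO retinas. Without array 1 the list median was -0.14. Spna1, a spectrin of red blood cells, was at background in all retinas, and the part of blood in the vessel values was not tested.

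Microglia and macrophage genes stood slightly below 0, with a median of -0.10 and 4 of 21 above 0. Cx3cr1, the fractalkine receptor of microglia, read 10.80, 10.77, 10.76, 10.80 and 10.90 in control and 11.07, 10.74, 10.58, 10.61 and 10.37 in cKO retinas. The control retinas were close together, while cKO retina 1 lay above them and cKO retinas 2 to 5 below. The difference came to -0.11 (SE 0.119), and that of Csf1r, the receptor that keeps microglia alive, was -0.07 (SE 0.0724). Cd14, a co-receptor for bacterial products, had the lowest p of the list, with -0.16 (SE 0.0644, unadjusted p = 0.0217 and adjusted p = 1 in limma).

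**Figure D4:**
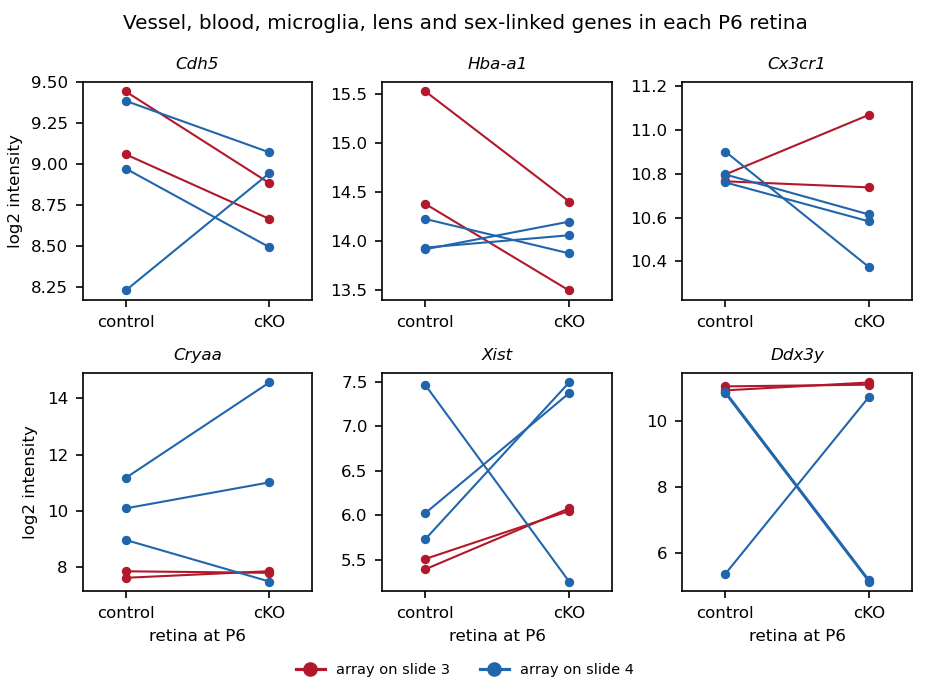
Log2 intensity (vertical axis, scaled for each gene) of genes of vessels, blood, microglia, lens and the sex chromosomes in each control and cKO retina at P6 (horizontal axis). Lines join the retinas of an array and are coloured by slide. Cryaa was highest in cKO retina 4, Hba-a1 in control retina 1, and Xist and Ddx3y mark opposite retinas on slide 4.

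Lens and pigment epithelium are not part of the neural retina, and the source of the signal of their genes was not tested. All 19 lens genes had a fold change above 0, with a median of 0.45, and this rested on cKO retina 4. The median log2 intensity of the lens genes was 6.46, 6.13, 7.90, 8.23 and 7.82 in control and 6.56, 6.63, 6.52, 10.83 and 8.47 in cKO retinas. Retinas of slide 4 were mostly higher than those of slide 3, and cKO retina 4 was far above all. Cryaa, alpha-A crystallin and the brightest gene of the list, read 14.56 there and between 7.49 and 11.17 in the other 9 retinas. Without array 4 the list median was -0.03. Of the 19 genes, 11 were well above background, and the part of lens RNA in other results was not tested beyond leaving out that array.

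Pigment epithelium genes had a median of 0.09, with 10 of 12 above 0. Their median log2 intensity lay between 9.06 and 9.48 in control and between 9.01 and 9.48 in cKO retinas, with Dct as the brightest gene. Rpe65, the isomerase of the visual cycle, read between 7.79 and 8.03 in control retinas, 7.14 in cKO retina 3 and between 7.95 and 8.27 in the other cKO retinas. Connective tissue genes had a median of -0.01 (5 of 10 above 0), among them Col1a1, a collagen, at 0.46 (SE 0.301). Its dye-adjusted differences were -0.01 and -0.08 on the arrays of slide 3 and 1.13, 0.63 and 0.64 on those of slide 4. Astrocyte genes had a median of 0.04, with 4 of 6 above 0.

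Sex-linked transcripts showed that the pairs were not matched for sex on every array. Xist, the RNA of the inactive X chromosome, read 5.39, 5.51, 5.73, 7.46 and 6.02 in control and 6.08, 6.05, 7.49, 5.25 and 7.37 in cKO retinas. Ddx3y, a helicase gene of the Y chromosome, read 11.05, 10.93, 10.84, 5.35 and 10.89 in control and 11.10, 11.16, 5.12, 10.73 and 5.17 in cKO retinas. Control retina 4 and cKO retinas 3 and 5 thus had high Xist and low Ddx3y, and the other 7 retinas the reverse. The retinas of arrays 1 and 2, on slide 3, were alike, and those of arrays 3, 4 and 5, on slide 4, differed. This split is the same as that of slide and dye orientation.

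CRB2 sits in a complex whose other members kept similar levels. Genes of the Crumbs complex had a median fold change of -0.04, with 4 of 12 above 0 and 0 at an unadjusted p under 0.05. Crb1, the other Crumbs gene of photoreceptors and Müller glia, read 9.51, 9.18, 9.53, 9.40 and 9.22 in control and 9.16, 9.40, 9.29, 9.18 and 9.09 in cKO retinas. The groups overlapped, and cKO was lower on arrays 1, 3, 4 and 5. Its fold change was -0.13 (SE 0.0774, adjusted p = 1 in limma), and a second probe gave 0.05 (SE 0.103). Crb3, the epithelial form, was well above background in 4 control and 3 cKO retinas and had a fold change of -0.03 (SE 0.0563). Mpp5, which encodes PALS1, was at -0.11, and Inadl, which encodes PATJ, at -0.05.

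The Par and Scribble complexes, which set the apical border against the basolateral membrane, had a median of 0.02 (6 of 11 above 0). Pard3 was at -0.02 (SE 0.0604) and Pard6a at -0.09 (SE 0.0554). Genes of adherens and tight junctions had a median of 0.01, with 10 of 17 above 0. Ctnnb1, which encodes beta-catenin and links cadherins to actin, was at 0.08 (SE 0.0479). Zyx, zyxin of focal contacts, read 12.21, 12.15, 12.14, 12.10 and 12.14 in control and 12.16, 12.23, 12.43, 12.32 and 12.28 in cKO retinas. Of the cKO values only that of retina 1 fell among the control values. This gave a fold change of 0.13 (SE 0.0556, unadjusted p = 0.0368 and adjusted p = 1 in limma).

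Signalling pathways tied to Crumbs proteins in other tissues were close to 0 as well. The medians were 0.01 for Notch (14 of 24 genes above 0), 0.01 for Hippo (11 of 20), -0.02 for mTORC1 (8 of 19), -0.01 for Wnt (10 of 21) and 0.02 for Hedgehog (8 of 12). Every one of the 24 Notch and 21 Wnt genes was well above background with a 95% confidence interval inside -0.5 to 0.5.

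Psen2, a subunit of the gamma-secretase that cleaves Notch, had the lowest p among these pathways. It read 11.36, 11.38, 11.32, 11.46 and 11.53 in control and 11.35, 11.33, 11.16, 11.17 and 11.28 in cKO retinas. It was lower in cKO on all 5 arrays, and cKO retinas 3 to 5 lay below every control retina. The dye-adjusted differences were -0.11, -0.15, -0.07, -0.19 and -0.16 on arrays 1 to 5, alike on both slides. The fold change was -0.13 (SE 0.0485, unadjusted p = 0.0134 and adjusted p = 1 in limma).

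Notch1 itself, the receptor of progenitors, was at 0.08 (SE 0.0606) and its target Hes1 at -0.10 (SE 0.147). Yap1, the co-activator held back by Hippo signalling, was at -0.13 (SE 0.0716), with dye-adjusted differences of -0.10, -0.10, -0.00, -0.13 and -0.32 on arrays 1 to 5. The related Wwtr1 was at 0.10 (SE 0.0733).

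Myc, a Wnt target that promotes growth, was the only 1 of the 498 distinct list genes measured whose groups did not overlap. The share of all probes without overlap is not given here, so this is not read as a genotype difference. Myc read 8.41, 8.52, 8.41, 8.40 and 8.38 in control and 8.58, 8.53, 8.67, 8.62 and 8.53 in cKO retinas. The lowest cKO value lay just above control retina 2, and the other control retinas were lower. The difference came to 0.15 (SE 0.0754, adjusted p = 1 in limma), and the exact sign permutation p was 0.0625.

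Genes of stress and cell death were close to 0 as lists. Apoptosis genes had a median of -0.02, with 7 of 23 above 0. Apaf1, the core of the apoptosome, read 9.0, 9.35, 9.53, 9.33 and 9.12 in control and 9.21, 9.61, 9.66, 9.53 and 9.36 in cKO retinas. It was higher in cKO on all 5 arrays, by 0.25, 0.29, 0.10, 0.17 and 0.20 after dye adjustment, while the groups overlapped. cKO over control came to 0.20 (SE 0.0665, unadjusted p = 0.00787 and adjusted p = 1 in limma). Bax, which opens mitochondria, was at -0.04 (SE 0.0586).

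Immediate early genes, which respond to handling and activity within minutes, had a median of 0.03 (13 of 22 above 0), with Fos at 0.20 (SE 0.122) and Egr1 at 0.25 (SE 0.264). Heat shock genes had a median of 0.02 (4 of 5) and interferon and antigen presentation genes -0.06 (4 of 13). Hypoxia response genes had a median of -0.06 (3 of 13 above 0), with a dye-adjusted -0.45 on array 3 and values from -0.00 to 0.09 on the other arrays. Without array 3 the hypoxia median was 0.04. The 3 qPCR reference genes of the study had a median of -0.04.

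The genes with the lowest p were not grouped in the lists. Among those higher in cKO, Ncl, nucleolin of the ribosome factory, read 13.59, 14.26, 14.11, 14.19 and 14.08 in control and 14, 14.12, 14.43, 14.54 and 14.59 in cKO retinas. Control retina 1 was below all others, and cKO retinas 3 to 5 were above all control retinas. The fitted difference was 0.26 (SE 0.0599, unadjusted p = 0.000507 and adjusted p = 0.996 in limma), and a second, dimmer probe gave 0.10 (SE 0.0805).

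Next came Hist1h2ac, a histone H2A gene, at 0.42 (SE 0.102), Kpna3, an importin, at 0.15 (SE 0.0375), Sec63 of the endoplasmic reticulum at 0.20 (SE 0.0519) and Gm3652 at 0.43 (SE 0.112). Hook1, Ss18, Mrps2, Utp15 and Ptpn12 followed with fold changes between 0.15 and 0.19. These are values of the brightest probe, and for 5 of these genes, Mrps2 below among them, other probes well above background were nearer to 0 or below it. For Kpna3 the others gave -0.11 (lower in cKO on 5 of 5 arrays) and 0.01, for Hook1 -0.05, for Ss18 0.04 and for Sec63 0.05. Mrps2 encodes a mitochondrial ribosomal protein and Utp15 a factor of ribosome assembly. Mrps2 read 11.44, 11.48, 11.49, 11.49 and 11.42 in control and 11.63, 11.61, 11.62, 11.60 and 11.62 in cKO retinas. The groups did not overlap, and each was tight, with an SD of 0.0332 and 0.0130 (n = 5 each). The fold change of 0.16 (SE 0.0431) had an adjusted p of 1 in limma, and a second probe of Mrps2 gave 0.08 (SE 0.0664).

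Among the genes lower in cKO, Gm3058, a predicted gene, had the lowest p of all probes. It read 8.72, 8.48, 8.52, 8.71 and 8.75 in control and 8.45, 8.08, 7.94, 8.06 and 8.22 in cKO retinas. All cKO retinas lay below all control retinas, by the least margin between cKO retina 1 and control retina 2. The log2 fold change was -0.49 (SE 0.0758, 95% confidence interval -0.65 to -0.32), lower on 5 of 5 arrays, by -0.26, -0.39, -0.58, -0.65 and -0.54 after dye adjustment. Its adjusted p was 0.291 in limma, and 0.00737 with array as a random block, the lowest of its alternatives, which ranged up to 1.

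The next ones, in order of p, were Cercam, a glycosyltransferase-like adhesion protein, at -0.38 (SE 0.0825), Vmn2r-ps43, a pseudogene, at -0.20 (SE 0.049), and Rmrp, the RNA of a ribosomal RNA processing enzyme, at -0.34 (SE 0.0852). Uqcrq, a subunit of respiratory complex III, was at -0.17 (SE 0.0436), with -0.07 on a second probe. March10, Lypd6b, Gm11810 and Pfdn1 followed with fold changes between -0.27 and -0.21. Last came Uqcrh, of the same complex, at -0.17 (SE 0.0498), with -0.14 on a second probe. Lypd6b, a membrane-anchored modulator of acetylcholine receptors, read 9.30, 9.29, 9.40, 9.33 and 9.35 in control and 9.15, 9.10, 8.92, 8.97 and 8.97 in cKO retinas. Its groups did not overlap, and the adjusted p was 1 in limma.

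Several of these genes lie on chromosome 2, which carries Crb2. Gm3058 lies 0.55 Mb from the Crb2 probe on mm9, Cercam and Mrps2 lie 7.92 and 9.33 Mb to its centromere side, and Lypd6b lies 12.1 Mb to the other side. Within 20 Mb of Crb2, 35 of 663 probes (5.28%) had an unadjusted p under 0.05, against 103 of 2515 on the rest of chromosome 2 (4.1%) and 1456 of 36104 elsewhere or unmapped (4.03%). Of the 35, 21 were higher in cKO and 14 lower. Without array 4 the count was 17 (2.56%), below the 2.94% of all probes in that fit. Gm3058 had the lowest p of all probes. Other genes close to Crb2, picked as illustration, had smaller differences. Lhx2, a homeobox factor of progenitors, was at 0.10 (SE 0.0671), Dennd1a at -0.04 and Strbp at 0.02 on its brightest probe.

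At P0 and P3, Gm3058 had fold changes of -0.44 and -0.59, Lypd6b of -0.24 and -0.41, Cercam of -0.41 and -0.52, and Mrps2 of 0.08 at each age. The values at P10 are not given, because the genotypes of those retinas are uncertain.

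**Figure D5:**
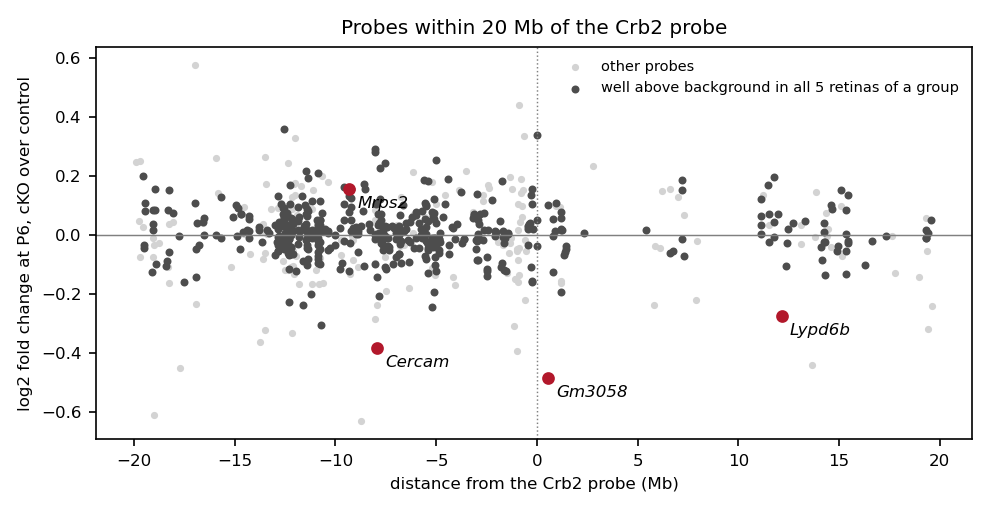
Log2 fold change of cKO over control at P6 (vertical axis) of each probe within 20 Mb of the Crb2 probe against its distance from that probe in Mb (horizontal axis). Dark points were well above background in all 5 retinas of a genotype, and red points carry the names of the genes with the lowest p. Gm3058 at -0.49 lies closest to Crb2 among the named ones, and most dark points lie between -0.2 and 0.2.

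Whether the genotype difference at P6 was unlike that at the other ages was tested directly. Of 39283 probes, 0 (0%) had an adjusted p under 0.05 in limma for the difference at P6 against the mean of P0, P3 and P10, with a lowest adjusted p of 0.954. At an unadjusted p under 0.05 there were 1237 (3.15%). With median centring in place of quantile normalization, 1 probe passed the adjusted threshold. With the P10 arrays, whose genotypes are uncertain, left out of the fit, 0 passed. No single gene can be called particular to P6 from this test, and lists were not tested against the other ages.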

How the data were processed

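The scanner intensity values are the mean signals and backgrounds that Feature Extraction 9.5.3.1 wrote per the file headers, and the authors' deposited log2 intensities were used only as an alternative. The deposited columns name a group only, without the retina. Control spots were dropped (1377 of 44397), 158 saturated or uneven ones were left out, and 42862 remained for 39283 probes on mm9.

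The mean signals were background-corrected with normexp, offset 0, quantile normalized over the 38 channels, and averaged over the spots of a probe. The differences of the 19 arrays were fitted in limma with a mean for each age and a dye orientation, with 14 residual degrees of freedom and Benjamini-Hochberg adjustment over all probes. R 4.3.3, limma 3.58.1, statmod 1.5.0 and the data.table package (1.17.8) were used. Deviations of paired retinas from their group correlated at 0.346 to 0.543, against a median of -0.0952 across arrays.

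Members and lists were chosen with earlier results of these data known. Named were all probes past an adjusted p of 0.05, the 10 genes of lowest p in each direction that have a symbol and were well above background in all 5 retinas of a group, the first 2 genes and the gene of lowest p of each list, Crb1, Crb2 and Crb3, and the 5 of lowest p within 20 Mb of Crb2, each by its brightest probe. Other list genes serve as illustration. Some of the genes this rule names are not reported here. Of the probe accessions, 25966 were found in the reference table, 22614 with the same symbol and 3352 with another, and the names of the array design were kept. Promoters come from RefSeq (GRCm38.p6) and matched 21 of 26 cell division genes.

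Alternatives were normalization, offsets, features, block, dye, sex-linked transcripts as covariates, the methods' t-test and leaving out each array. Leaving out the P10 arrays was added after the data had been seen. The authors' own fold changes, ratios, p values and array description table were not used here.

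With 5 arrays on 2 slides, dye orientation and slide cannot be separated at P6, and the median half-width of a 95% interval was 0.156, wider than most differences. Bulk RNA does not resolve cell types, and the mosaic deletion leaves cells with Crb2 in each cKO retina. Array intensities are relative. Sex differed between the retinas of the arrays on slide 4 and not of those on slide 3, so it cannot be separated from slide and dye either. The lists are short and overlap with the course of maturation, so their medians describe and do not test.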

Additional observations from a re-analysis of the deposited data

Results flagged for a closer look

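Single retinas that stood apart from the other 4 of their genotype at P6 were looked for among the named genes and lists, and 23 of 312 groups (7.37%) had such a value. With 5 retinas, chance flags about 1 in 20 groups. Control retina 1 had 6 of them and control retina 2 had 4. No retina was left out because of these values, and their causes were not tested.

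Control retina 1 was low for Ncl, of the nucleolus, at 13.59. It was high for the globins Hba-a1, at 15.53, and Hbb-b1, at 14.48, for the red blood cell list, at 9.34, for Cebpd, a stress factor, at 11.29, and for H2-K1, of antigen presentation, at 10.38. Control retina 2 was low for Crb2, at 12.14, and for Yap1, of Hippo signalling, at 10.96, and high for Myc, at 8.52, and for the bipolar list, at 10.07. Control retina 3 was low for Prdm1, of photoreceptor precursors, at 12.38. Control retina 4 was low for Ddx3y, of the Y chromosome, at 5.35, and for the sex-linked list, at 5.14. Control retina 5 was high for Cx3cr1, of microglia, at 10.90.

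Among cKO retinas, retina 1 was high for Egfl7, of vessels, at 12.74. Retina 2 was low for Lcn2, of gliosis, at 7.29 and for Isg15, an interferon target, at 8.82. Retina 3 was low for Rpe65, of pigment epithelium, at 7.14. Retina 4 was high for Gja1, a gap junction gene, at 7.29 and for Crybb1, of the lens, at 10.17, and low for the Hippo list, at 9.99. Retina 5 was high for Bax, of apoptosis, at 13.49 and for the bipolar list, at 10.13.

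The mean dye-adjusted difference of Ptpn12, a phosphatase, was 0.16 at P6 with the opposite sign at P3. That of ENSMUST00000114610, which was not well above background, was 0.58 at P6. Its sign was the opposite in the P10 retinas as labelled, whose genotypes are uncertain, and at P0 too. These age differences were not tested one by one.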

How the results depend on the processing

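Outside the lists of lens, blood and sex-linked genes, the list medians at P6 were small in all alternatives. Medians near 0, such as those of rods, cones and hypoxia genes, took the other sign in some, as did that of lens genes. The adjusted count of 0 probes became 2 in limma with array as a random block and dye: Gm3058 at -0.49 (adjusted p = 0.00737) and Pfkfb3 at -0.50 (adjusted p = 0.0250). Of the named genes, 1 passed the threshold there, Gm3058. With a dye effect for each age, 1 probe passed, Acsf2, at -0.74 (adjusted p = 0.0115). The unadjusted count of 1594 was 1084 with the paired block but without dye, and 305 with neither block nor dye. The cause was not tested.

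The unadjusted count was 498 with the methods' t-test and 309 with the deposited log2 intensities. It was 818 among the 21292 probes with a mean log2 above 7, where fewer probes were tested. Leaving out 1 array gave 1153 (without array 4) to 2068 (without array 1), with 0 past the adjusted threshold each time and a lowest adjusted p of 0.0571 (without array 3). For P6 against the other ages, 1 probe passed with median centring without quantile normalization.

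Probes near Crb2 with an unadjusted p under 0.05 numbered 35 in the chosen fit (5.28%, against 4.06% of all probes) and 45 without array 1 (6.79% against 5.26%). Where the count was lower, the share of all probes was mostly lower too. It was 22 with mean log2 above 7 (5.51% against 3.84%, fewer probes), 11 with neither block nor dye (1.66% against 0.776%) and 18 with the block without dye (2.71% against 2.76%). The methods' t-test gave 17 (2.56% against 1.27%), the deposited log2 intensities 12 (1.81% against 0.787%) and leaving out array 4 gave 17 (2.56% against 2.94%). Within 10 Mb it was 20 of 339 probes (5.90%).

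Of 2462 values of the 118 named genes, 2459 kept their label. The 2 that moved were those of Aurkb and ENSMUST00000114610 with Agilent's processed signals, both not well above background, and Gm3058 was stronger with the random block. Among list medians, those of bipolar, cell division, endothelial and microglial genes kept their sign in all alternatives. The lens median, 0.45, was -0.03 without array 4.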
